A study of Mus musculus with 36 samples.

Results

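The immediate early genes of neuronal activity described here are Fos, Fosb, Junb, Egr1, Egr2, Egr3, Egr4, Npas4, Nr4a1 and Arc. They were chosen by name as a known gene group, with earlier results of these data known, and make up 10 of the 38924 gene rows of the count tables. RNA of hypothalamus, cortex and brainstem of C57BL/6 mice was sequenced in 36 libraries, with 3 libraries to every combination of genotype (4) and region (3). The study set out to find transcripts that change with loss of the Hcrt (hypocretin, or orexin) gene or of the neurons that make the peptide, in a pair of mouse models of narcolepsy. The groups were Hcrt/Orexin-ataxin-3 transgenic mice (labelled OX-At-tg/+), wild types of that line, Hcrt knockout mice, and wild types of the knockout line. In the transgenic line the Hcrt promoter drives ataxin-3 in the hypocretin neurons and ablates them, while the knockout mice lack the Hcrt gene. Neither age, time of day nor vigilance state before death is given in the sources used here, and the labels do not say whether libraries of a group came from separate animals. The p-values therefore measure only the spread between these libraries, which may be technical.

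Each gene is given here with its place on GRCm38. Fos (chr12:85473890-85477273, plus strand), Fosb (chr7:19302696-19310051, minus strand) and Junb (chr8:84974484-84978718, minus strand) encode subunits of the AP-1 factor. Egr1 (chr18:34859823-34864984, plus strand), Egr2 (chr10:67535475-67542188, plus strand), Egr3 (chr14:70077203-70082614, plus strand) and Egr4 (chr6:85511121-85513589, minus strand) encode zinc-finger factors of the EGR family. Npas4 (chr19:4984355-4990316, minus strand) encodes a bHLH-PAS factor that responds to calcium entry in neurons, and Nr4a1 (chr15:101254269-101274795, plus strand) encodes an orphan nuclear receptor. Arc (chr15:74669083-74672570, minus strand) is no transcription factor: its protein acts at the synapse in the removal of AMPA receptors from the membrane. Junb overlaps Prdx2 on the opposite strand. The strand setting of the read counting is not given in the sources used here, so the level of Junb is uncertain.

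Immediate early genes are transcribed within minutes of synaptic activity, without new protein synthesis, and are used across the brain as a record of recent neuronal firing. Calcium entry and receptor signalling switch on kinases that phosphorylate factors already bound at their promoters, such as CREB at the cyclic-AMP response element (CRE) and SRF with its partners at the CArG box. Their RNA is short-lived, so its level follows the recent hours of an animal, including waking, novelty and handling. In the cortex these genes fall in sleep and rise in waking, which is why they are read in studies of sleep disorders. Hypocretin neurons fire in waking and project to the cortex, the hypothalamus itself and the brainstem.

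The promoter windows of 4 members that hold a CRE core are shown. The levels of these genes varied together from library to library in cortex, as described further on. Those of Egr2, whose window held no core, varied with them too, and a link between the cores and this variation was not tested. Each window is the 250 bases before the transcription start, taken from RefSeq on GRCm38.p6 and printed 5′ to 3′ on the strand of the gene. Capitals mark the CRE core TGACG, or CGTCA where it lies on the other strand. The windows are chr12:85473640-85473889 for Fos (plus strand), chr7:19310046-19310295 for Fosb (minus), chr8:84978749-84978998 for Junb (minus) and chr6:85513590-85513839 for Egr4 (minus).
Fos: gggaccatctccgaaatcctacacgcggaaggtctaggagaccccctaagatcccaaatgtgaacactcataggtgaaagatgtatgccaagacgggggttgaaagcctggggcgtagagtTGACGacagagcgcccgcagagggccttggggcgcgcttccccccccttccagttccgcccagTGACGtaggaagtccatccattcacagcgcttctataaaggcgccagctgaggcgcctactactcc
Fosb: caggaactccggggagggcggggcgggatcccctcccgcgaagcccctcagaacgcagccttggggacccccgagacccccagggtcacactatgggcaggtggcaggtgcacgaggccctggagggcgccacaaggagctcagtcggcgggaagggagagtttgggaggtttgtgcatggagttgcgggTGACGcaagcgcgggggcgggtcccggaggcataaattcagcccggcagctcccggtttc
Junb: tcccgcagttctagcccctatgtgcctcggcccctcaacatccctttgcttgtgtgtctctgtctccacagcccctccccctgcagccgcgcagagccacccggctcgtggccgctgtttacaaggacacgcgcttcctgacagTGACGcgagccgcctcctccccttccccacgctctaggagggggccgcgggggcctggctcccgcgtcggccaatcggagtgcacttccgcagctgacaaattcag
Egr4: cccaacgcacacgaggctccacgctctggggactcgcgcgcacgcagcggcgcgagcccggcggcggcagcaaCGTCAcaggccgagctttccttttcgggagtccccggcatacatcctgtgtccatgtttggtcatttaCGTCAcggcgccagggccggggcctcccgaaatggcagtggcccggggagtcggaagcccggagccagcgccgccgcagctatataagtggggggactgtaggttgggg

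The CRE cores of Fos lie at -129 to -125 and -66 to -62 from the start, that of Fosb at -60 to -56, that of Junb at -106 to -102, and those of Egr4 at -177 to -173 and -109 to -105. A window was found for 7 of the 10 members, and Arc, Egr1 and Egr3 had no entry. The core, searched on both strands, occurred in 6 of the 7 windows (Egr2 had none) and in 17.8% of 32851 RefSeq windows of the same length. At least 2 cores occurred in 4 of the 7 (Fos, Egr4, Npas4 and Nr4a1) and in 3.90% of all windows. RefSeq starts can differ from those of the coordinates above: the Nr4a1 window lies before an internal start, 12577 bases from the GENCODE start, and the Npas4 window lies wholly in GENCODE exons, with its start 345 bases into the gene. An EGR site, GCGNGGGCG, stood in the windows of Fosb and Nr4a1 and in 4.70% of all, and the TATA box TATAAA in that of Fos and in 12.4% of all. The full CRE TGACGTCA, the AP-1 site TGANTCA, the CArG box and the NR4A element AAAGGTCA were found in none of the 7 windows, against 1.55%, 6.75%, 1.47% and 1.34% of all. These are matches of letters in a short window and do not show binding.

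Each library held 21915540 to 47057537 reads assigned to genes. The lowest was ataxin-3 wild-type brainstem library 2, where 42.0% of reads were unassigned. In library 1 of that group 32.3% were, against at most 28.6% in the other brainstem libraries. Both are controls in the brainstem comparisons of the ataxin-3 effect and of the wild types. In fits that left out 1 library at a time, no member was called in either. Levels are in CPM, a gene's reads scaled to the size of the library with TMM factors, within a region for comparisons of genotypes and over all 36 libraries for comparisons of regions. Hcrt checked the labels in hypothalamus: ataxin-3 libraries had 2.28, 2.42 and 2.60 CPM against 192, 107 and 209 in their wild types, and knockout libraries 1.23, 1.09 and 1.06 CPM against 86.9, 54.1 and 60.1. Outside hypothalamus Hcrt was near 0, at 9 to 42 reads in the knockout libraries of cortex and brainstem (at most 1.27 CPM), 30 reads in cortical knockout wild-type library 2 and 0 to 5 reads in every other library. In those regions Hcrt is too low to show its loss. In brainstem every knockout library still held more Hcrt reads than every other library. In cortex this was so except for knockout wild-type library 2, which held more than the knockout libraries. The reason for this, and the label of that library, were not tested. Region markers matched the labelled tissues. Summed brainstem neuron markers ran from 527 to 700 CPM in brainstem and from 0.819 to 2.98 CPM elsewhere, and summed hypothalamic neuron markers from 1096 to 2437 CPM in hypothalamus and from 16.4 to 25.7 CPM elsewhere. A few hypothalamus libraries stood apart in genes of neighbouring tissue. The pituitary hormone gene Gh reached 23751 and 12457 CPM in ataxin-3 wild-type libraries 1 and 3 and 17413 CPM in knockout wild-type library 3. The olfactory gene Omp reached 653 CPM in ataxin-3 library 1. Slc17a7, a vesicular glutamate transporter found in cortical neurons, was at 126 and 93.9 CPM in knockout wild-type hypothalamus libraries 1 and 3. It was at 0.595 to 13.1 CPM in the other 10 hypothalamus libraries and at 130 to 190 CPM in brainstem. In bulk tissue, fewer cells of a type and less RNA per cell cannot be told apart.

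In wild-type mice all 10 genes were higher in cortex than in hypothalamus and than in brainstem. The cortical excess over hypothalamus ran from 2.11-fold for Fos to 25.8-fold for Egr3, with a median log2 fold change of 3.12 over the members against -0.03 over all genes tested. All 10 passed an adjusted p of 0.05 (edgeR's quasi-likelihood test with Benjamini-Hochberg adjustment over 17744 genes, used throughout). The background was high: 75.9% of all genes passed in either direction and 37.2% were higher in cortex. Over brainstem the median was 3.71 against -0.02 for all genes, again with 10 of 10 higher, where 78.6% of genes passed and 38.7% were higher in cortex. The 6 cortical wild-type libraries lay wholly above the 6 of hypothalamus for 9 of the 10 genes (31.8% of all genes) and wholly above those of brainstem for 10 of 10 (32.7%).

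Between cortex and hypothalamus, Egr3 and Arc had the widest contrasts. Arc was at 378 ± 66.1 CPM (SD, n = 6) in wild-type cortex, 20.5 ± 12.5 CPM in hypothalamus and 36.6 ± 2.71 CPM in brainstem. Its cortical libraries ran from 297 to 439 CPM, those of brainstem from 33.1 to 41.4 CPM and those of hypothalamus from 13.5 to 45.6 CPM. The log2 fold change of Arc, cortex over hypothalamus, was 4.27 ± 0.19 (SE, edgeR adjusted p = 6.74e-17). Arc was the only member lower in hypothalamus than in brainstem by the test, by -0.91 ± 0.18 on the log2 scale (edgeR adjusted p = 8.22e-05), although hypothalamus library 1 of the knockout wild types lay above every brainstem library.

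Egr1, the most abundant EGR gene, was at 436 ± 49.6 CPM in cortex, 49.6 ± 28.4 CPM in hypothalamus and 32.7 ± 2.31 CPM in brainstem (SD, n = 6 each). Cortex exceeded hypothalamus by 3.19 ± 0.18 (SE) in log2. The hypothalamic values of Egr1 ran from 27.7 to 104 CPM and overlapped the brainstem range of 29.8 to 35.7 CPM. Egr3 was at 59.1 ± 7.59 CPM in cortex against 2.45 ± 1.69 CPM in hypothalamus and 0.632 ± 0.185 CPM in brainstem. Its log2 fold changes were 4.69 ± 0.24 against hypothalamus and 6.49 ± 0.29 against brainstem. No wild-type library of Egr3 overlapped between any of the 3 regions.
Egr2, a factor best known for hindbrain patterning and myelination, was at 11.2 ± 4.01 CPM in cortex, 1.34 ± 0.876 CPM in hypothalamus and 0.117 ± 0.0430 CPM in brainstem. In brainstem that is 1 to 8 reads in each of the 12 libraries, so its log2 fold change of 6.56 ± 0.38 between cortex and brainstem rests on few reads. Egr4 was at 28.8 ± 3.23, 2.61 ± 1.21 and 1.01 ± 0.331 CPM in cortex, hypothalamus and brainstem, 3.54 ± 0.16 in log2 above hypothalamus in cortex.

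Fos had the flattest profile of the AP-1 genes. It was at 42.0 ± 11.3 CPM in cortex, 20.004 ± 5.60 CPM in hypothalamus and 21.1 ± 3.53 CPM in brainstem (SD, n = 6 each). Cortical libraries of Fos ran from 27.5 to 56.3 CPM and overlapped the hypothalamic range of 15.2 to 30.3 CPM, the only overlap of a member between cortex and another region. Its log2 fold change was 1.08 ± 0.19 for cortex over hypothalamus (SE, edgeR adjusted p = 9.39e-06), and hypothalamus and brainstem differed by -0.09 ± 0.19, which did not pass (adjusted p = 0.677). Fosb, whose protein includes the long-lived form ΔFosB, was at 12.7 ± 2.65, 3.00 ± 1.18 and 1.86 ± 0.399 CPM in the same order. Junb was at 60.9 ± 9.40, 16.6 ± 3.68 and 7.18 ± 1.27 CPM, so its hypothalamic libraries all lay above those of brainstem. Npas4 was at 40.1 ± 9.36, 4.68 ± 1.02 and 1.76 ± 0.463 CPM, and Nr4a1 at 136 ± 19.2, 21.4 ± 12.4 and 10.6 ± 1.74 CPM.

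**Figure D1:**
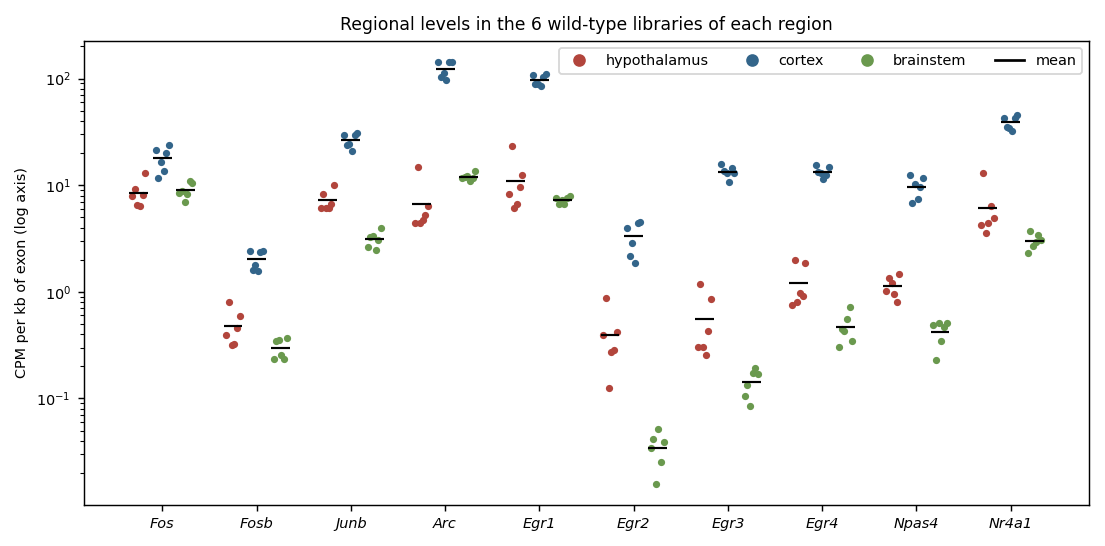
CPM per kb of exon (log axis) of each immediate early gene in the 6 wild-type libraries of each region, on a scaling shared by the 36 libraries; points are libraries and bars are means. Cortex is highest for all 10 genes, Fos shows the smallest gap, and the hypothalamic points of Arc and Egr1 spread across the brainstem level.

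Per kb of exon, the only scale on which the genes may be ranked against each other, cortex was led by Arc at 124 and Egr1 at 97.3 CPM per kb. Nr4a1 followed at 38.8, Junb at 26.5, Fos at 17.9, Egr4 and Egr3 both at 13.4, Npas4 at 9.69, Egr2 at 3.31 and Fosb at 2.03 CPM per kb. Neighbours in this order had overlapping SDs except at the steps from Egr1 to Nr4a1, from Nr4a1 to Junb and from Npas4 to Egr2. In hypothalamus the order began with Egr1 at 11.1 ± 6.33, Fos at 8.51 ± 2.38, Junb at 7.22 ± 1.597, Arc at 6.69 ± 4.10 and Nr4a1 at 6.09 ± 3.54 CPM per kb (SD, n = 6), levels whose SDs overlapped. Brainstem was led by Arc at 11.98 ± 0.885, Fos at 8.98 ± 1.502 and Egr1 at 7.29 ± 0.514 CPM per kb, of which only Fos and Egr1 had overlapping SDs. Egr2 was the lowest member in hypothalamus and brainstem, at 0.396 and 0.0345 CPM per kb, and Fosb in cortex.

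Between hypothalamus and brainstem, 8 members were higher in hypothalamus, Arc was lower and Fos did not pass, where 68.2% of all genes passed and 36.2% were higher in hypothalamus. The libraries did not overlap for 5 members (Junb, Egr2, Egr3, Egr4 and Npas4), against 25.9% of all genes. The steps were 3.43 ± 0.45 in log2 for Egr2, 1.80 ± 0.34 for Egr3, 1.42 ± 0.23 for Npas4, 1.27 ± 0.20 for Egr4 and 1.201 ± 0.14 for Junb. For the other 3 they were 0.97 ± 0.22 (Nr4a1), 0.68 ± 0.17 (Fosb) and 0.55 ± 0.17 (Egr1). Without the hypothalamus libraries in which Slc17a7 was over 50 CPM, Egr1 was at 0.01 ± 0.12 (adjusted p = 0.964) and Fosb at 0.27 ± 0.17 (adjusted p = 0.183). Without only knockout wild-type hypothalamus library 1, Egr1 did not pass either, at 0.27 ± 0.12 (adjusted p = 0.0600). In the libraries of the models in place of the wild types, cortex was again higher for 10 of 10 in both comparisons, while Fosb, Egr1 and Nr4a1 lost their call between hypothalamus and brainstem.

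In no region did an immediate early gene pass the test in either model against its own wild type. The values in every library follow, since the spread within groups was as large as most of the differences. In hypothalamus, 1 gene of 16738 passed for the ataxin-3 effect (0.00597%) and 2 for the knockout effect (0.0119%).

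**Figure D2:**
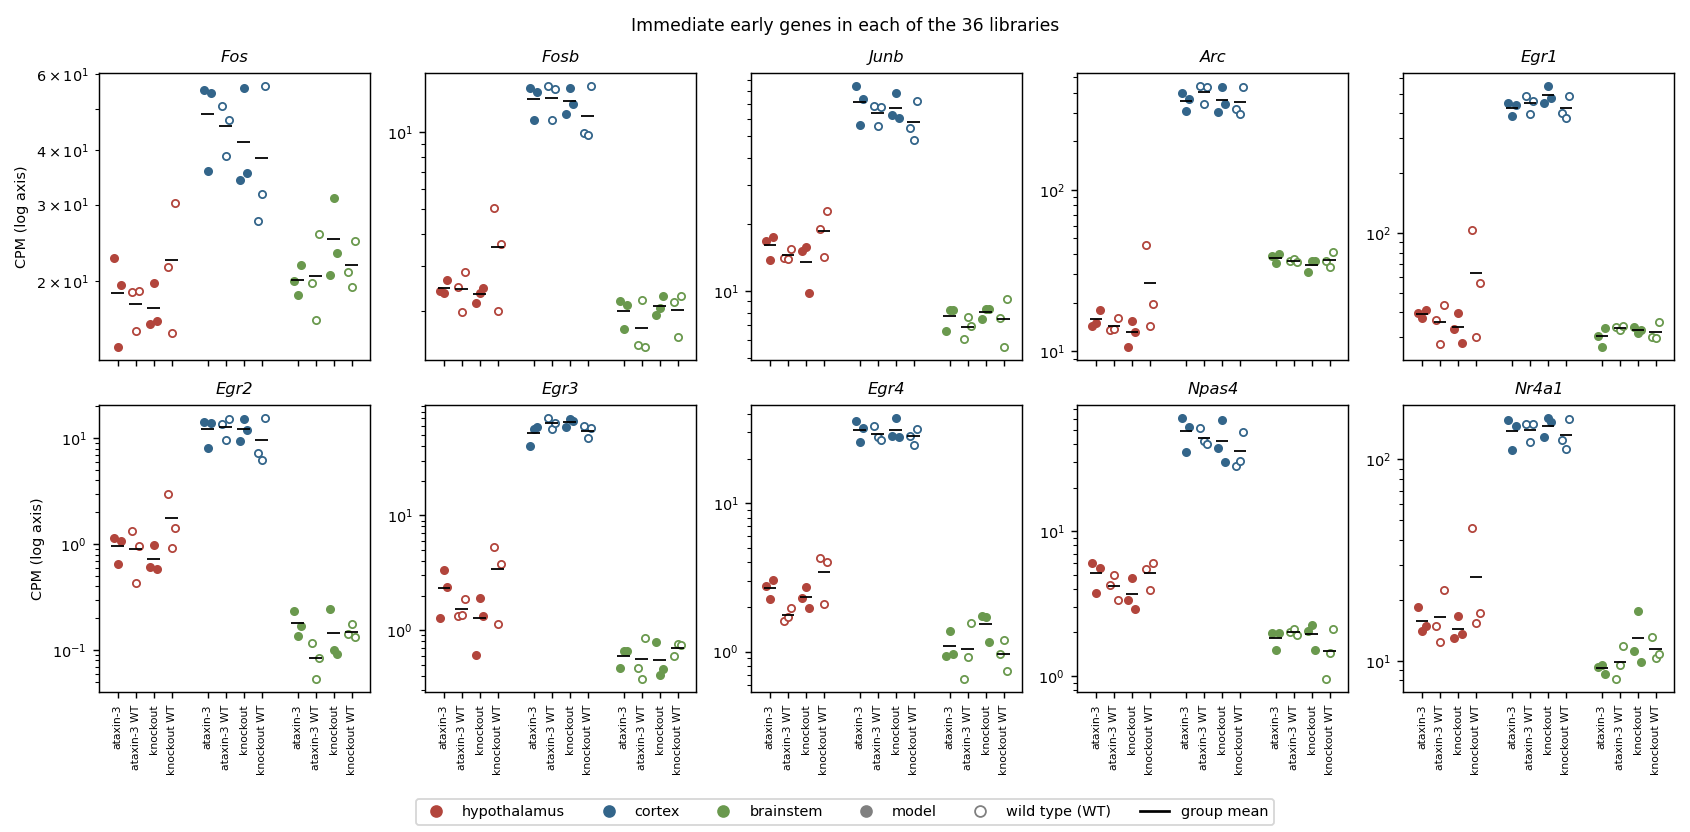
CPM (log axis, a separate range in each panel) of each immediate early gene in all 36 libraries, by region and genotype, scaled over all libraries; filled points are models, open points wild types, and bars group means. The regions separate more than the genotypes, and knockout wild-type hypothalamus library 1 lies far above its group for Arc, Egr1 and Nr4a1.

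Among hypothalamic libraries the knockout wild types were the group that differed most within itself. Arc was at 48.8, 15.1 and 21.0 CPM in knockout wild-type libraries 1, 2 and 3 and at 11.5, 16.2 and 14.0 CPM in the knockout. In the ataxin-3 line Arc was at 15.7, 15.8 and 19.2 CPM in transgenic and 14.4, 14.5 and 17.1 CPM in wild-type libraries. A single wild-type library thus held more than any other level of Arc in this region, and the remaining wild-type values overlapped those of the knockout. The fitted knockout effect on Arc was -1.02 ± 0.36 in log2 (SE, unadjusted p = 0.0167, edgeR adjusted p = 0.806), and -0.38 ± 0.17 without library 1.

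Egr1 showed the same arrangement. It was at 111, 31.6 and 60.0 CPM in the knockout wild types and at 35.8, 42.0 and 30.0 CPM in the knockout, with a fitted effect of -0.91 ± 0.37 (unadjusted p = 0.0357), or -0.35 ± 0.26 without library 1. In the ataxin-3 line it was at 43.9, 39.8 and 43.5 CPM in transgenic and 39.4, 29.5 and 46.3 CPM in wild-type libraries, 0.14 ± 0.37 apart in log2. Knockout wild-type library 2 therefore lay at the low end of Egr1 in the whole region while library 1 lay at the top.
Egr3 was at 5.63, 1.19 and 4.03 CPM in the knockout wild types and 0.654, 2.03 and 1.40 CPM in the knockout, an effect of -1.39 ± 0.55 (unadjusted p = 0.028). Egr2 was at 3.18, 0.974 and 1.54 CPM against 0.654, 1.03 and 0.623 CPM in the knockout, an effect of -1.29 ± 0.47 (unadjusted p = 0.0186). Egr4 was at 4.57, 2.19 and 4.33 CPM against 2.47, 2.87 and 2.09 CPM, an effect of -0.58 ± 0.25 (unadjusted p = 0.0423). For each EGR gene, library 2 of the knockout wild types sat among the knockout values.

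Fos, the most widely used marker of the group, was at 23.0, 16.0 and 32.5 CPM in the knockout wild types and 17.2, 20.9 and 17.2 CPM in the knockout. Its effect of -0.37 ± 0.24 did not pass even before adjustment (unadjusted p = 0.154). Fosb was at 5.39, 2.11 and 3.93 CPM against 2.32, 2.48 and 2.62 CPM (-0.62 ± 0.27) and Junb at 20.4, 14.9 and 24.6 CPM against 16.4, 16.7 and 10.4 CPM (-0.46 ± 0.20). All 3 AP-1 genes overlapped between these groups. Nr4a1 was at 48.9, 16.3 and 18.6 CPM against 14.0, 17.8 and 14.4 CPM, with an effect of -0.86 ± 0.40, or -0.18 ± 0.23 without library 1. Npas4 was at 5.91, 4.14 and 6.45 CPM against 3.60, 5.06 and 3.08 CPM, an effect of -0.49 ± 0.25.

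Thus all 10 fitted knockout effects in hypothalamus lay below 0, with a median of -0.74, against 0.01 over all genes tested. Of these, 7 had an unadjusted p under 0.05 (3.89% of all genes did), 0 had an adjusted p under 0.05, and 0 had groups that did not overlap (3.26% of all genes had every knockout library lower). Since the members move together from library to library, their 7 small p-values are not independent. The median was -0.39 without knockout wild-type library 1, -1.02 without library 2 and -0.81 without library 3. With a term for the cortical markers it was -0.24, with Fos above 0. Without libraries 1 and 3, the pair high in Slc17a7, it was 0.05 with 5 members above and 5 below 0. In that last fit the group is library 2 alone, assumed to vary like the other groups.

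**Figure D3:**
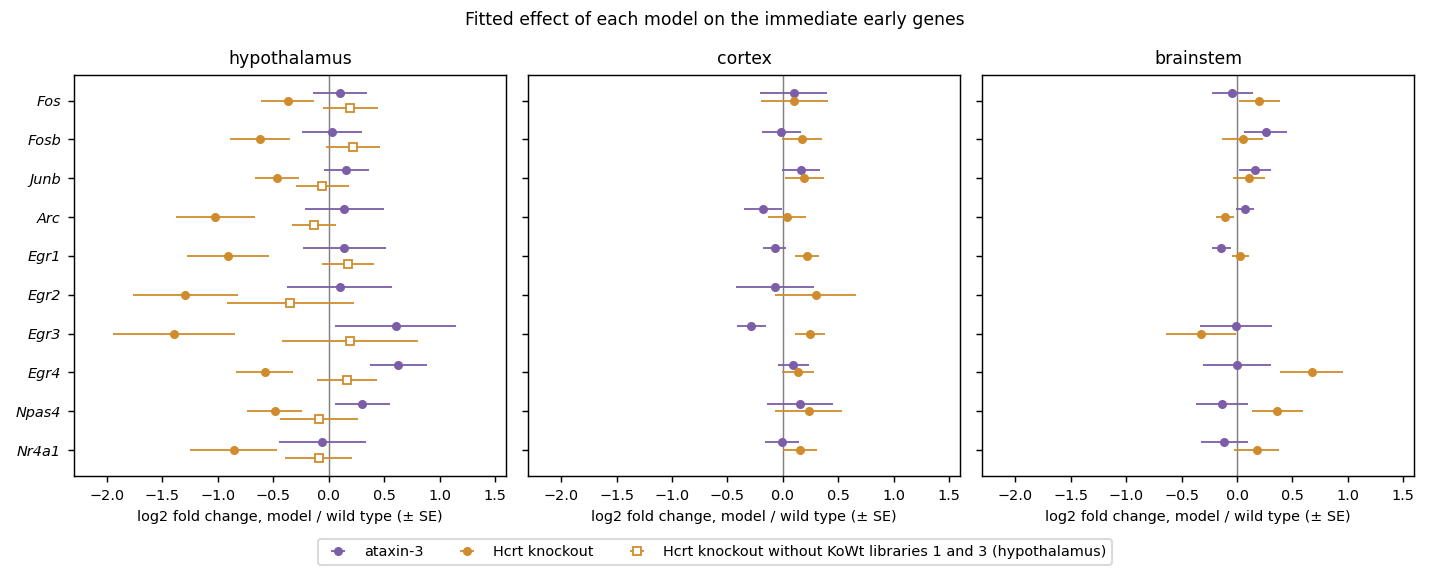
Log2 fold change of each model over its own wild type with its SE, for each immediate early gene and region; open squares repeat the hypothalamic knockout effect without knockout wild-type libraries 1 and 3. All 10 hypothalamic knockout effects lie left of 0 with every library, and the open squares lie around 0.

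Markers of cortical neurons moved with these values. The 12 listed cortical markers summed to 2099 to 2304 CPM in cortex and to 497 to 578 CPM in brainstem, so the list is not particular to cortex. In knockout wild-type hypothalamus libraries 1 and 3 they summed to 254 and 231 CPM, against 99.0 to 127 CPM in the other 10 hypothalamus libraries. Slc17a7 made up most of this excess: the other 11 markers summed to 128 and 137 CPM in libraries 1 and 3, against 95.8 to 119 CPM in the other 10. All 12 markers were detected in both. Slc17a7 was at 9.18% of its cortical mean in library 1 and 6.82% in library 3, and Neurod6 at 0.768% and 2.28%. The members had no single share: Arc was at 12.4% and 5.33% of its cortical mean, Nr4a1 at 32.8% and 12.4%, and Fos at 49.4% and 69.5%. Tbr1, a factor of deep-layer cortical neurons, was at 7.84 and 7.67 CPM against at most 5.30 CPM in the other 10, Emx1 at 1.01 and 1.51 CPM against at most 0.550 CPM, and Rtn4rl2 at 1.36 and 3.16 CPM against at most 0.844 CPM. Neurod6 was at 0.653 and 1.94 CPM, not above the other 10, where cortex averaged 79.5 CPM, and Cux2 and Rorb were not above them either. Of the 12 markers 4 exceeded all other hypothalamus libraries in both, among them Slc17a7, by which this pair of libraries was singled out. Of the 10 immediate early genes 7 did so. The share of all genes that did so was not computed, so neither count can be read against a background. Knockout wild-type library 3 was also the one with high Gh. The heat shock genes on the list, read for tissue handling, summed to 486 to 531 CPM in the knockout wild types and 531 to 557 CPM in the knockout. The part of cortical or other tissue, or of handling, in the result was not tested beyond these values and the fits above.

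**Figure D4:**
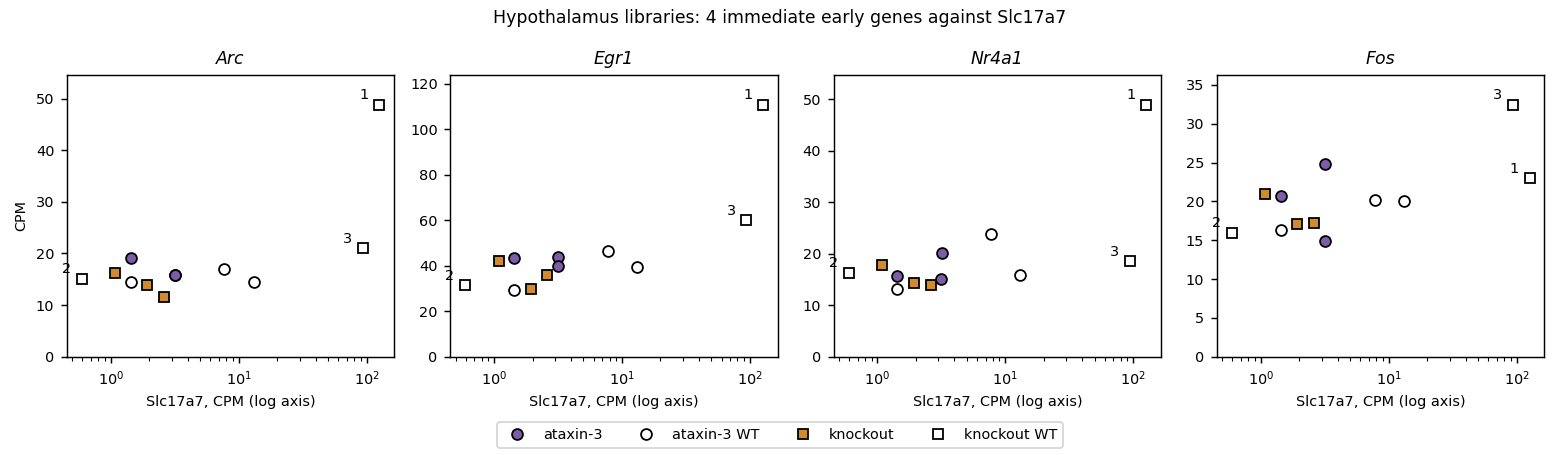
CPM of Arc, Egr1, Nr4a1 and Fos against CPM of Slc17a7 (log axis) in the 12 hypothalamus libraries, by genotype, with the replicate numbers of the knockout wild types. Libraries 1 and 3 lie alone to the right at 126 and 93.9 CPM of Slc17a7, and library 1 holds the highest Arc, Egr1 and Nr4a1.

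The ataxin-3 effect in hypothalamus was smaller for most members, with 9 of 10 above 0 and a median of 0.14 (0.0066 over all genes). Egr4 was at 3.05, 2.39 and 3.24 CPM in transgenic libraries and 1.72, 1.82 and 2.08 CPM in their wild types. Every transgenic library lay above every wild type, an arrangement that 5.21% of all genes showed, and the effect was 0.63 ± 0.26 in log2 (SE, unadjusted p = 0.0319, edgeR adjusted p = 1.000). No other member separated. Egr3 was at 1.40, 3.54 and 2.52 CPM against 1.43, 1.43 and 1.99 CPM (0.61 ± 0.55), and Npas4 at 6.60, 4.001 and 5.91 CPM against 4.55, 5.34 and 3.54 CPM (0.30 ± 0.25). Fos was at 24.8, 15.0 and 20.7 CPM against 20.1, 16.3 and 20.2 CPM (0.10 ± 0.24).
Fosb, Junb, Egr2 and Nr4a1 differed by 0.03 ± 0.27, 0.16 ± 0.20, 0.10 ± 0.48 and -0.06 ± 0.40. Nr4a1 was the only member below 0.

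The wild types of the lines were compared with each other as a measure of how far controls differ. In hypothalamus the ataxin-3 wild types lay below the knockout wild types for all 10 genes, with a median of -0.74 in log2, and none passed (0% of all genes did). This comparison shares the knockout wild-type libraries with the knockout effect, so the pair of medians is not independent. Unadjusted p under 0.05 was reached by Egr4 (-0.98 ± 0.26, unadjusted p = 0.00259) and Arc (-0.88 ± 0.36, unadjusted p = 0.0323), 2 of 10 against 2.29% of all genes. Egr4 was the only member whose ataxin-3 wild types all lay below (5.61% of all genes). Without the pair of libraries high in Slc17a7 the median was 0.11, with 8 members above 0. The difference of the model effects, ataxin-3 minus knockout, was above 0 for 10 of 10 with a median of 0.93, 5 with an unadjusted p under 0.05 (2.26% of all genes) and 0 adjusted (0%). Without that pair it was 0.24 with 7 above 0. Over all genes 0 passed in either comparison, and 383 and 378 genes had an unadjusted p under 0.05 by edgeR, while DESeq2 called 2 and 3 genes, no member among them.

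In cortex, where the members are most abundant, genotype groups overlapped for every one of them. Arc was at 380, 295 and 350 CPM in ataxin-3 and 419, 326 and 415 CPM in their wild types, and at 292, 412 and 324 CPM in knockout and 303, 284 and 417 CPM in their wild types. The fitted effects on Arc were -0.18 ± 0.17 and 0.03 ± 0.17 in log2. Egr1 was at 432, 368 and 421 CPM against 465, 378 and 441 CPM in the ataxin-3 line, and at 432, 523 and 458 CPM against 383, 362 and 469 CPM in the knockout line. Its effects were -0.07 ± 0.11 and 0.22 ± 0.11 (unadjusted p = 0.0586 for the second, edgeR). Fos, at 52.7, 34.2 and 52.0 CPM against 48.4, 37.0 and 44.8 CPM and at 32.7, 53.3 and 33.9 CPM against 26.2, 30.3 and 53.8 CPM, differed by 0.10 ± 0.30 and 0.10 ± 0.31. For these 3 genes the range within each group was wider than the difference of the group means.

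Egr3 was the cortical member nearest to a call. It was at 38.5, 54.5 and 56.5 CPM in ataxin-3 and 66.9, 54.3 and 60.6 CPM in their wild types, an effect of -0.28 ± 0.14 (unadjusted p = 0.0571, edgeR adjusted p = 0.751). In the knockout it was at 55.7, 66.3 and 63.5 CPM against 56.8, 45.2 and 54.7 CPM, an effect of 0.24 ± 0.14. The difference of these effects was -0.52 ± 0.19 (unadjusted p = 0.0174, adjusted p = 0.935). Ataxin-3 library 1, at 38.5 CPM, lay below every one of its wild types, while libraries 2 and 3 lay within their range. Npas4 ran from 26.8 to 57.6 CPM over the 12 cortical libraries, with effects of 0.15 ± 0.30 and 0.23 ± 0.30. Junb, Nr4a1, Fosb, Egr2 and Egr4 differed by between -0.07 and 0.30 in log2 in either model.

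Counted together, 4 cortical members lay above and 6 below 0 for the ataxin-3 effect (median -0.01), and 10 lay above 0 for the knockout effect (median 0.18, range 0.03 to 0.30). Over all genes these medians were 0.0039 and -0.0006. Called were 0 of 10 each, against 0% and 0.0789% of all genes. The ataxin-3 wild types lay above the knockout wild types for 10 of 10 (median 0.21). This comparison, too, shares the knockout wild types with the knockout effect. None of these passed (0% of all genes), nor did a difference of the models (10 below 0, median -0.18, 0.0243% of all genes called). Over all genes the ataxin-3 effect gave 839 and the wild types 538 genes with an unadjusted p under 0.05 by edgeR, and DESeq2 called 2 and 17 genes, no member among them. Of the members, only Egr3 reached it in any of these cortical comparisons.

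In brainstem Arc and Egr1 varied least among the members. Arc ran from 30.4 to 40.5 CPM and Egr1 from 26.7 to 34.9 CPM over the 12 libraries, with effects of 0.07 ± 0.08 and -0.14 ± 0.08 in ataxin-3 and -0.11 ± 0.08 and 0.03 ± 0.08 in the knockout. Egr4 was at 1.72, 1.69 and 1.15 CPM in the knockout and 0.945, 1.19 and 0.726 CPM in its wild types, 0.68 ± 0.28 higher in log2 (unadjusted p = 0.0303, edgeR adjusted p = 1.000), and these ranges overlapped. Fos was at 20.4, 30.6 and 22.8 CPM against 20.7, 19.2 and 24.2 CPM in the knockout line and Nr4a1 at 11.1, 17.5 and 9.66 CPM against 12.9, 10.3 and 10.6 CPM. Knockout library 2 was the highest brainstem library for both Fos and Nr4a1. In the ataxin-3 line Fos was at 19.4, 18.3 and 21.3 CPM against 19.3, 15.7 and 25.3 CPM.

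Egr2 did not pass the expression filter in brainstem, which left 9 members tested there. Above and below 0 lay 4 and 5 members for the ataxin-3 effect (median -0.01), 7 and 2 for the knockout effect (median 0.11), and 3 and 6 for the wild types. None was called, where 0.00606%, 0.0728% and 0% of 16493 genes were, and 0% for the difference of the models. Of the members, only Egr4 in the knockout had an unadjusted p under 0.05. Over all genes the wild types gave 2451 and the difference of the models 783 such genes by edgeR, and DESeq2 called 290 and 16 genes, no member among them. Both comparisons hold ataxin-3 wild-type libraries 1 and 2, which were high in unassigned reads. The part of this in those counts was not tested.

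A joint fit of the 36 libraries asked whether a model's effect depended on the region. The fitted knockout effect lay lower in hypothalamus than in cortex for 10 of 10 members, with a median difference of -0.91 in log2. Unadjusted p under 0.05 was reached by 8 of 10 (4.07% of all genes) and adjusted by 0 (0.00564%), the smallest adjusted p being 0.859 for Egr3 (-1.60 ± 0.48). Against brainstem the median was -0.92 with 10 of 10 below 0, 4 unadjusted (5.62% of all genes) and 0 adjusted (0.00564%). These differences contain the same knockout wild-type hypothalamus libraries. Without library 2 of that group Egr1 passed against cortex (-1.46 ± 0.24, adjusted p = 0.00204) and against brainstem (-1.27 ± 0.25, adjusted p = 0.0214), and Egr3 against cortex (-2.02 ± 0.37, adjusted p = 0.0105). Without libraries 1 and 3 the medians were -0.11 and -0.10, with 3 members above and 7 below 0 in each. The ataxin-3 effect gave no call in any pair of regions (0% of all genes in each), nor did the knockout effect between cortex and brainstem (0%). In these 4 comparisons 839, 1227, 510 and 275 of all genes had an unadjusted p under 0.05 by edgeR, no member among them, and DESeq2 called 1, 10, 7 and 0 genes, again no member.

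Within groups the members varied more than the median gene. The biological coefficient of variation, the spread between libraries left after counting noise, had a median of 28.0% over the members in hypothalamus against 9.12% over all tested genes. In cortex it was 16.8% against 5.57%, and in brainstem 17.0% against 5.4996%. Every tested member exceeded the median gene of its region, 10 of 10, 10 of 10 and 9 of 9. Against the trend for genes of their own abundance, 7 of 10 members lay above in hypothalamus, 10 of 10 in cortex and 6 of 9 in brainstem. Fosb lay below it in hypothalamus and brainstem, Egr4 and Npas4 in hypothalamus, and Arc and Egr1 in brainstem. The share of all genes above the trend was not computed. In cortex Egr2 (32.8%), Fos (27.2%) and Npas4 (27.1%) varied most and Egr1 (10.8%) least. In hypothalamus Egr3 (49.8%) and Egr2 (42.4%) led. There the SD over the mean of a group was widest in the knockout wild types for every member but Junb and Npas4. Those members varied most in the knockout. For Arc this ratio was 63.5% in the knockout wild types and 9.74% to 16.7% in the other groups. Brainstem Arc (7.16%) and Egr1 (6.95%) were the steadiest, close to the median gene.

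The variation was shared between members in cortex. Deviations of log2 CPM from the group mean over the 12 cortical libraries correlated positively for 44 of 45 pairs of members, with a median Pearson r of 0.87, and 29 pairs were over 0.8. Egr1 followed the mean of the other 9 most closely (r = 0.98), and Egr3 hardly at all (r = 0.14). Ataxin-3 library 1 weighs on this value. It held the lowest cortical Egr3, at 38.5 CPM, while 9 of the 10 members lay above their group mean. Reads in no annotated gene made up 10.6% of that library, against 13.1% and 13.2% in libraries 2 and 3 of its group. The r of Egr3 without that library was not computed. Without Egr3 all 36 pairs were positive, from 0.71 to 0.99. As a mean over the 10 members, knockout wild-type library 3 lay 0.37 above its group in log2 and knockout library 2 lay 0.27 above, while ataxin-3 library 2 lay at -0.27 and knockout wild-type library 2 at -0.23. Ataxin-3 wild-type library 2 lay at -0.20.

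In hypothalamus all 45 pairs were positive with a median r of 0.65. The widest deviations were those of knockout wild-type libraries 1 and 2, at 0.58 and -0.70. Without the 3 libraries of that group 40 of 45 pairs were positive and the median was 0.48. In brainstem 28 of 45 pairs were positive, the median was 0.16, and library means stayed between -0.14 and 0.18. These correlations describe points that share libraries and scaling factors and were not tested.

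**Figure D5:**
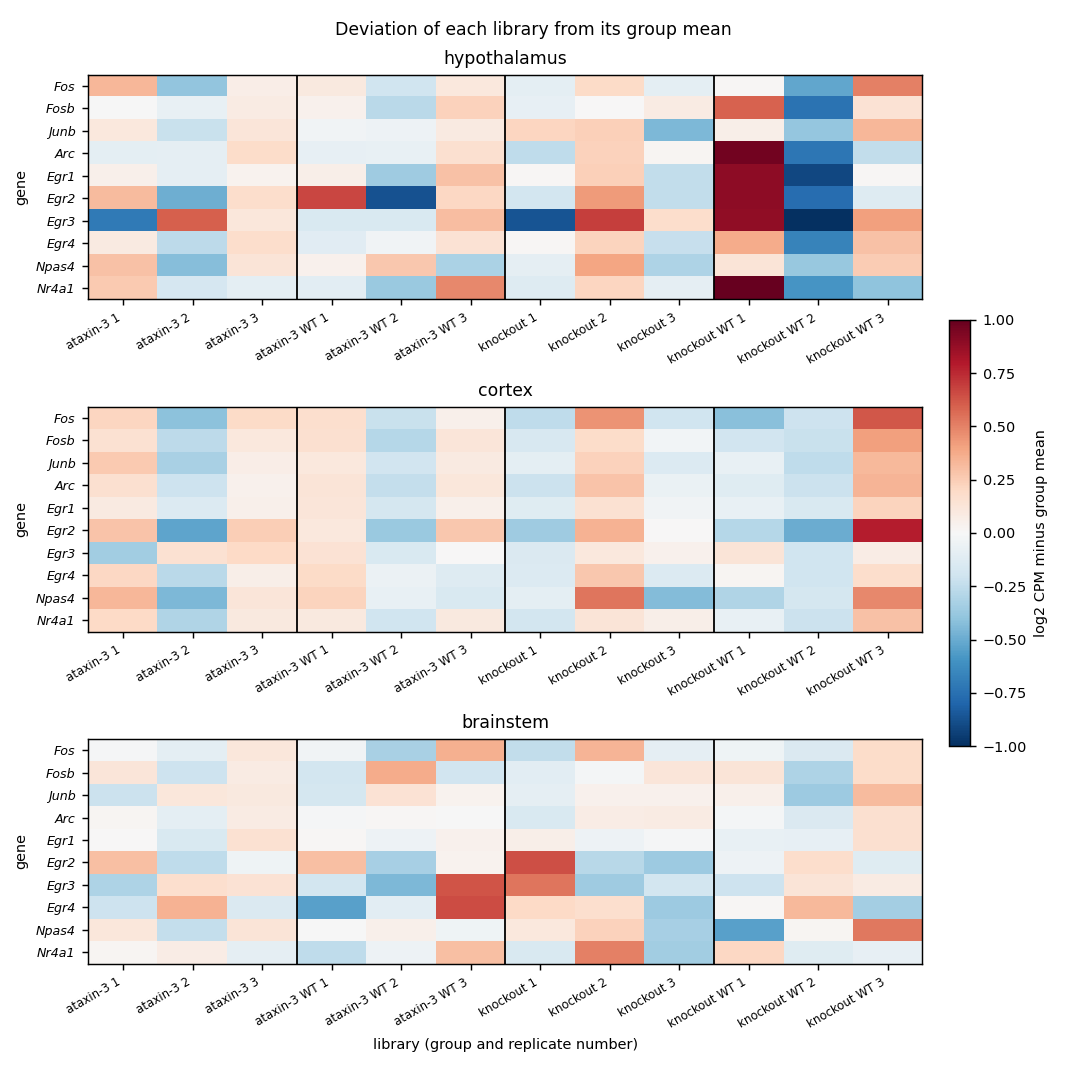
Deviation of each library from its group mean in log2 CPM (colour, from -1 in blue to 1 in red) for each immediate early gene, by region and library; black lines separate the groups. Cortical columns have mostly 1 colour from top to bottom apart from Egr3, the knockout wild-type columns dominate hypothalamus, and brainstem shows no shared columns.

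The labels number the libraries 1 to 3 in each genotype and region without saying that a number is an animal. Over these numbers, deviations in a pair of regions were positively correlated in 26 of 30 tests (10 genes, 3 pairs of regions, n = 12), none past Benjamini-Hochberg adjustment in exact two-sided permutation tests within groups. The members vary together in cortex and in hypothalamus, and the pairs of regions share libraries. These 30 tests are therefore not independent, and their count of positive signs cannot show that a number is an animal. Fos gave r = 0.81 and rho = 0.79 between hypothalamus and cortex (exact permutation p = 0.0185 and 0.0301, adjusted p = 0.111 and 0.1505), and r = 0.79 without the 2 libraries farthest from the median. Npas4 gave r = 0.82 and rho = 0.86 between cortex and brainstem (exact permutation p = 0.00849 and 0.00617, adjusted p = 0.111 and 0.0926), and r = 0.72 without the 2 farthest. Arc gave 0.12 and 0.20 between hypothalamus and cortex (exact permutation p = 0.861 and 0.614, adjusted p = 0.876 and 0.737).

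The genes whose deviations were most like the members' mean differed by region. In cortex, over 12 libraries and 13047 genes, the closest 6 were Dusp1 (r = 0.93), Ankrd10, Dnajb5, Dusp6, H2-T22 and Catsper2. Dusp1 and Dusp6 encode phosphatases that switch off MAP kinases and are themselves induced by activity. Of the 13047 cortical genes, 19 were on the list of other inducible transcription factors and 30 on that of inducible signalling and effector genes. Among the closest 100 cortical genes 9 came from these lists: Dusp1, Dusp5, Dusp6, Btg2, Trib1, Sik1, Ier2, Rasl11a and Klf10. In hypothalamus, over 13416 genes, the closest were Mxd1 (r = 0.93), Mef2c, Lrrc75a, Tnfaip3, B3glct and Ankrd33b, and 1 of the closest 100 (Dusp5) was on those lists. Mef2c, a factor of cortical and other excitatory neurons, ran from 37.9 to 127 CPM there. In brainstem, over 13155 genes, they were Txndc15 (r = 0.97), Thap3, Hddc3, Rmdn2, Gnpat and Ctnnbl1, with Ier2 the 1 listed gene in the closest 100. In hypothalamus and in brainstem alike, 19 and 29 genes of those lists were ranked. The r values named are the highest of many over only 12 libraries and were not tested.

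The other genes of the pathway were also compared between regions. Over all genes 37.2% were higher and 38.7% lower in cortex than in hypothalamus. Of 21 further inducible transcription factors tested, 14 were higher in cortex than in hypothalamus and 5 lower (median 0.68 in log2), among them Klf10 (2.64), Ier5 (2.5), Bhlhe40 (1.39) and the clock gene Per1 (1.34). Of 31 inducible signalling and effector genes 18 were higher and 7 lower (median 0.48). Dusp6 (2.22), the kinase Plk2 (2.02) and the neurite factor Nrn1 (2.27) were higher, and Scg2, a granin of secretory vesicles, was lower (-2.96). Of 26 upstream kinases and constitutive factors 19 were higher and 6 lower (median 0.63), led by Camk2a (2.91) and Camkk2 (2.88). Genes of glutamate receptors and calcium channels were higher in 8 of 9 and lower in 1 (median 1.19). Grin1 (1.02), Grin2b (2.17), Gria2 (1.19) and Cacna1a (1.57) were among the higher. The EGR corepressors split, Nab2 at 1.32 and Nab1 at -0.45. Over brainstem, cortex was higher for 13 further factors, 18 effectors, 21 upstream genes and 9 glutamate and calcium genes and lower for 5, 8, 4 and 0 (38.7% and 39.8% of all genes). Between hypothalamus and brainstem the same lists had 11, 12, 12 and 6 genes higher and 7, 14, 9 and 2 lower, where 36.2% and 32.0% of all genes were.

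None of the genes on these 5 lists was called in either model in any region. In knockout hypothalamus the smallest p of the upstream list were those of Mef2c (-1.07 in log2, unadjusted p = 0.0067, edgeR), Camkk2 (-0.41) and Camk2a (-0.40). Of the glutamate and calcium genes 9 of 9 lay below 0 (median -0.48), Grin2b at -0.66 and Cacna1d at -0.48, and Nab2 was at -0.48. The list of cortical neuron markers moved with them, with 11 of 12 below 0 and a median of -0.34. The further inducible factors lay below 0 in 15 of 21 (median -0.10) and the effectors in 21 of 31 (median -0.07), with Ptgs2, the inducible cyclooxygenase, at -0.88. Over all genes tested for this effect 53.2% lay above 0, with a median of 0.01. These list values include knockout wild-type libraries 1 and 3, the pair high in Slc17a7, and were not computed again without that pair. In ataxin-3 hypothalamus the smallest p were those of Pcsk1 (-0.53), a hormone-processing enzyme, Jun (0.28), Crem (-0.40) and Klf4 (0.30). In cortex they were Homer1 (-0.26) and Csrnp1 (-0.26) for ataxin-3 and Klf4 (0.31) for the knockout, and in knockout brainstem Per1 (0.21) and Nptx2 (-0.29).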

How the data were processed

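The authors deposited unnormalized read counts by Ensembl gene, 1 file to a library. The submitters' processing notes name cutadapt 1.2.1, TopHat2 2.0.9 and HTSeq 0.5.4p3, with GRCm38. Per the labels' protocols, libraries were made from 500 ng of total RNA with the Illumina TruSeq Stranded mRNA kit. The strand setting of the counting is not given in the sources used here. The 5 lines of unassigned reads (24.7% to 42.0% of a library's total) were left out.

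Symbols came from GENCODE M21. Counts were tested in edgeR 4.0.16 (quasi-likelihood, R 4.3.3, robust, TMM, default expression filter by group, Benjamini-Hochberg, threshold 0.05). The 12 libraries of a region entered 1 fit, and all 36 entered another for comparisons between regions. SEs were derived from the test statistic. The script was tested on simulated data. Alternatives were DESeq2 1.42.0, limma 3.58.1 voom with quality weights, other scaling, filters and group sets, a replicate block, a cortical marker covariate and leaving out libraries. Leaving out libraries high in Slc17a7 was chosen after seeing the data.

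Deviations are log2 CPM (prior count 2) minus the group mean. The members and lists were chosen with earlier results of these data known. Named were the 10 members, Hcrt, up to 4 genes with the smallest p of each pathway list, the 6 genes most like the members (mean log2 CPM over 1), and markers that moved with a member. Cyr61, on a pathway list, had no match.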

Additional observations from a re-analysis of the deposited data

Results flagged for a closer look

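Of 60 groups of 6 libraries tested (10 genes, 3 regions, models or wild types of both lines pooled), 4 held a library whose gap to the nearest of the others, divided by the range, exceeded Dixon's 95% critical value for 6 samples. Chance alone gives about 1 in 20, or 3 groups. In wild-type hypothalamus, knockout wild-type library 1 stood apart for Arc at 48.8 CPM (gap over range 0.808, nearest library 21.0 CPM) and for Nr4a1 at 48.9 CPM (0.701, nearest 23.9 CPM). In brainstem of the models, knockout library 2 stood apart for Fos at 30.6 CPM (0.638, nearest 22.8 CPM) and for Nr4a1 at 17.5 CPM (0.707, nearest 11.1 CPM).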

How the results depend on the processing

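The number of members called was recomputed for 21 comparisons, in 345 alternative values, of which 343 stayed within 1.5 times the reported number. The other 2 left out knockout wild-type hypothalamus library 2: over the libraries left out in turn, the members called ranged from 0 to 2 for the knockout effect in hypothalamus minus cortex and from 0 to 1 for hypothalamus minus brainstem. Of 3389 alternative values for single members 3354 kept direction and side of the threshold, with 163 sign changes within 1 SE of 0 counted among them. Another 6 lost and 3 gained the threshold, all given in the report, and 26 changed sign. Without library 1 of the knockout wild types, Nr4a1 between the hypothalamic wild types was 0.021, and over all libraries left out in turn it ran from -0.94 to 0.021. With the cortical marker covariate the hypothalamic knockout effect on Fos was 0.14. Without libraries of Gh over 1000 or Omp over 100 CPM, Npas4 was at -0.10 for the ataxin-3 effect and 0.085 between the wild types in hypothalamus. Without libraries of Slc17a7 over 50 CPM, the hypothalamic knockout effect was 0.20 for Fos, 0.22 for Fosb, 0.18 for Egr1, 0.19 for Egr3 and 0.16 for Egr4. The hypothalamic wild types then differed by 0.24 for Fos, 0.29 for Fosb, 0.047 for Junb, 0.019 for Arc, 0.28 for Egr1, 0.44 for Egr3, 0.11 for Npas4 and 0.12 for Nr4a1. The difference of the models was -0.10 for Fos, -0.19 for Fosb and -0.035 for Egr1. The knockout effect in hypothalamus minus cortex was 0.076 for Fos, 0.026 for Fosb and 0.017 for Egr4, and minus brainstem 0.16 for Fosb, 0.13 for Egr1 and 0.54 for Egr3. The cause of these changes was not tested.

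A replicate block of the numbers 1 to 3 changed no count of members called beyond that margin: 10, 10 and 9 between regions and 0 in each model comparison, with a median hypothalamic knockout effect of -0.65. Over all genes, same-numbered libraries of different regions correlated at -0.17 to 0.097, with 14 of 36 best with their own number among 3 candidates. Those of a model and its wild type correlated at -0.32 to 0.34, with 6 of 18 over 0.1. Genes that vary in 1 region need not vary in another, so these values cannot decide whether a number is an animal. Depth limits Egr2 in brainstem, at 1 to 8 reads per library.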
